A study of Mus musculus with 3 samples.

Results

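The *Hox* cluster genes were the 39 protein-coding genes of the table named *Hoxa*, *Hoxb*, *Hoxc* or *Hoxd* followed by a number, out of 55421 named genes and 21926 named protein-coding genes. They were chosen by name and biotype alone, with no measured value. Expression was measured by RNA-seq of polyA RNA in 3 libraries (replicates 1, 2 and 3) of ALSCs, mouse pluripotent stem cells established in Activin A and LIF from E6.5 epiblasts of embryos of ICR females and GOF/GFP males. All 3 libraries belong to 1 condition, so no groups were compared. The study calls its RNA-seq replicates biological without saying whether they were separate lines or cultures, and tests between them measure only the spread between these libraries.

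*Hox* genes encode homeodomain transcription factors that specify position along the anterior-posterior axis. They lie in clusters A to D, in which the order of the genes follows the order in which they become active in the embryo, from the 3′ (low-numbered, anterior) end to the 5′ (high-numbered, posterior) end. In pluripotent cells the clusters are a classical target of Polycomb proteins, which keep developmental genes silent, and in the embryo the first *Hox* transcripts appear at the posterior primitive streak, under the influence of WNT, FGF and retinoic acid.

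The count columns are named EPI_AL with a number and were matched to the ALSC libraries by AL and that number. The study also cultured epiblast stem cells and AFSCs, a similar line, in the same medium. It reports RNA-seq of the cells obtained from AFSCs (afALSCs), and the other count columns are named AF_SCs. The column names therefore leave a doubt as to which of these cells the values describe. Replicates 1, 2 and 3 held 18088505, 18724038 and 18037342 counts on genes with a name. On a gene of 1 kb, 1 count was worth 0.0553, 0.0534 and 0.0554 FPKM (counts scaled to the gene's length in kb and to the library's size). A gene with more than 3 counts in every library was taken as detected, because a true level of 3 counts can still give 0. Such limits and the intervals below cover counting error only, since without molecular identifiers several reads can stem from the same molecule. Replicate 1 stood apart from the others. Between all 3 libraries, 47.4% of the 16944 genes with at least 10 counts varied beyond counting error (exact multinomial or, for high totals, chi-square test, Benjamini-Hochberg adjusted p below 0.05), against 7.99% between replicates 2 and 3. The pluripotent identity named by the labels was checked with 6 markers of the epiblast, all of which exceeded 1 FPKM. Their summed level was 1222 to 1240 FPKM, with *Pou5f1* at 648 ± 25.3 FPKM (SD, n = 3) and *Fgf5*, the lowest, at 3.89 ± 0.0503.

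The proximal promoters of the 3 *Hox* genes with the highest mean FPKM are shown, although none of these genes was detected. They are taken from RefSeq on GRCm38.p6, 5′ to 3′, with each CpG in capitals.
*Hoxd13*, chr2:74667975-74668224, plus strand: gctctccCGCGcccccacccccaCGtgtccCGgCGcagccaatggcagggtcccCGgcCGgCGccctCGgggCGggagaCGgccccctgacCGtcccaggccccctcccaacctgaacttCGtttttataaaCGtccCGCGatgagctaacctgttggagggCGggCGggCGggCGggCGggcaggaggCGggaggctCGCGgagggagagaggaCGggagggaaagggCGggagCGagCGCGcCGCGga
*Hoxd1*, chr2:74762730-74762979, plus strand: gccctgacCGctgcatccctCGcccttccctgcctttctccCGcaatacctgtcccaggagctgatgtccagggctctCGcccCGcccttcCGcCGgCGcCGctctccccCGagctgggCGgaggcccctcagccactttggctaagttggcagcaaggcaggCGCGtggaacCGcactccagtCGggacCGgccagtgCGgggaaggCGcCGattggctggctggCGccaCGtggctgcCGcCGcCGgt
*Hoxb1*, chr11:96365508-96365751, plus strand, 244 bases: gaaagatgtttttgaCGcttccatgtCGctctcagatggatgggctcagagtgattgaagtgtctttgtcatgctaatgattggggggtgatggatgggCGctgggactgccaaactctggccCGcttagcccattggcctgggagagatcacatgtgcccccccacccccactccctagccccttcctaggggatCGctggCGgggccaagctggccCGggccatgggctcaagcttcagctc
For *Hoxb1* the bases before the gene's start in the table of counts are shown. Over the 250 bases before the RefSeq start, the *Hoxd13* promoter held 31 CpGs at 74.4% GC and the *Hoxd1* promoter 24 CpGs at 71.6% GC. The *Hoxd13* promoter had more CpGs than 94.8% of the 32851 mouse promoters in the same table, whose median was 6 CpGs at 52.4% GC. The *Hoxb1* promoter, with 7 CpGs at 59.2% GC, was close to that median. Of 3 motifs searched on both strands, the CCAAT box was present in each of the 3 promoters and in 33.8% of all promoters. The TATA box motif TATAAA was present only in that of *Hoxd13* among the 3, and in 12.4% of all promoters. The octamer TGATTNAT is a form of the site to which Hox and Pbx proteins bind together. It was in none of the 3 windows and in 2.82% of all promoters. Other forms of that site were not searched, and the 3 windows may hold them. The *Hoxb1* window as shown contains TGATGGAT, which resembles the octamer, and binding there was not tested. Promoters of 22 of the 39 *Hox* genes (56.4%) were in the table, which is too few for a statement on the whole family.

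No *Hox* gene was detected. Of the 39 genes, 31 (79.5%) had 0 counts in all 3 libraries, against 26.4% of all protein-coding genes. None had more than 3 counts in every library, against 60.3% of all protein-coding genes, and none reached 1 FPKM in every library, against 45.7%. The 29 counts that fell on *Hox* genes in the 3 libraries together were distributed over 8 genes, whereas 73.6% of all protein-coding genes had a count in some library. Each of these 8 genes had 1 to 9 counts in all, as did 10.2% of protein-coding genes. All *Hox* genes but *Hoxb1* had at most 3 counts in every library, which was true of 34.6% of protein-coding genes.

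Depth did not set this result at the level of 1 FPKM. A *Hox* gene at 1 FPKM would have given 15.8 counts (*Hoxa6*, with 874 bases the shortest) to 108 counts (*Hoxa3*, with 6014 bases the longest) in the library with the fewest, with a median of 44.6. The limit of 3 counts corresponded to between 0.0266 and 0.190 FPKM, and its median in the library with the highest limit was 0.0673 FPKM. The plot of detection limits shows that these limits all lay below 1 FPKM. *Hox* genes were shorter than protein-coding genes in general, with a median length of 2472 against 3508 bases, so their limits were somewhat higher than those of a typical gene. In a single library, levels under these limits could not be told from 0. The 3 libraries together would set a lower limit, which was not computed. In these bulk libraries, fewer cells with a transcript and less RNA per cell also cannot be told apart.

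**Figure D1:**
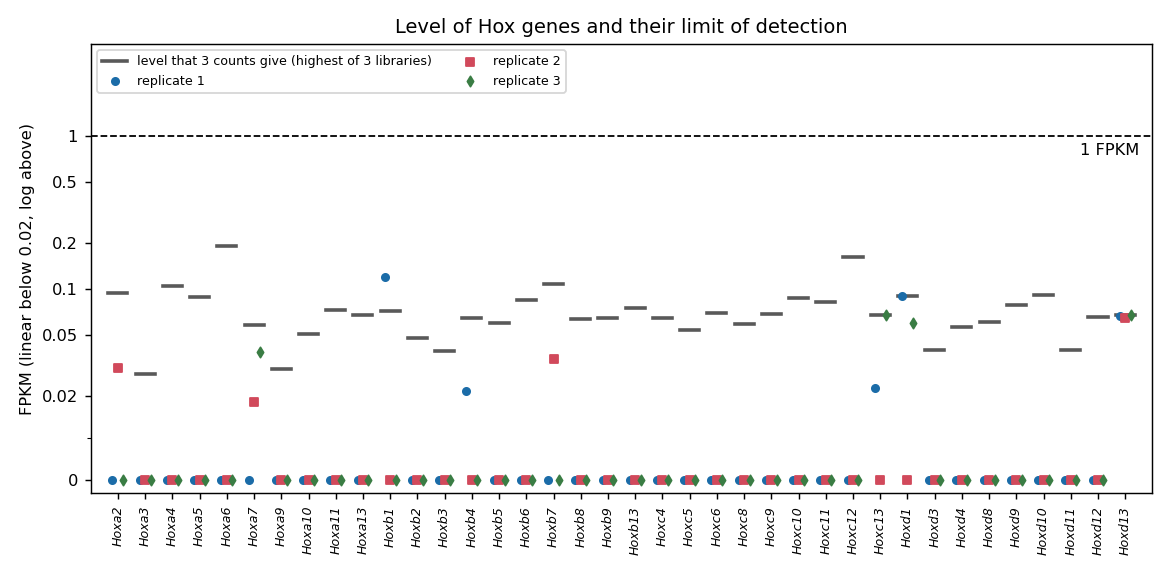
FPKM of *Hox* genes in replicates 1, 2 and 3 (points; y axis linear below 0.02 FPKM and logarithmic above) beside the level that 3 counts give in the library where it is highest (bars). The bars lie between 0.0277 and 0.190 FPKM, under the dashed line at 1 FPKM, and the highest point is *Hoxb1* in replicate 1 at 0.119 FPKM.

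How reads were assigned to a gene bears on zeros in dense clusters. The exons of 23 *Hox* genes share no base with an exon of another gene on either strand, and 17 of these 23 had 0 counts in every library. The exons of 16 genes overlap another gene, and *Hoxb3*, *Hoxd3* and *Hoxd4* share 52.9%, 62.8% and 52.3% of their exonic bases. Zeros of these 3 genes are uncertain, since a counting program can leave shared reads out. On the bases free of other genes alone, a *Hox* gene at 1 FPKM would still have given 15.8 to 99.1 counts. Of the 39 genes, 35 had a coding transcript in which at least 90% of the 50-base words occurred in no other gene. The exceptions were *Hoxd3* (13.8%), *Hoxd4* (57.8%), *Hoxd11* (86.6%) and *Hoxa2* (87.3%).

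*Hoxd13*, the most posterior gene of its cluster and a regulator of digit formation, was the only *Hox* gene with a count in every library. It had 3, 3 and 3 counts in replicates 1, 2 and 3, which is 0.0668, 0.0645 and 0.0670 FPKM (0.0661 ± 0.00137, SD, n = 3). The libraries were level, at the limit of 3 counts and not above it. *Hoxd13* alone took 31.0% of all *Hox* counts. The gene (ENSMUSG00000001819) lies at chr2:74668310-74671599, and the small SD does not describe the precision of so low a count.

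*Hoxb1*, which specifies a segment of the hindbrain and is among the earliest *Hox* genes of the gastrula, was the only *Hox* gene above 3 counts in any library. It had 5, 0 and 0 counts, or 0.119, 0 and 0 FPKM (0.0397 ± 0.0687, SD, n = 3), so its reads came from replicate 1 alone. With fewer than 10 counts it was outside the test of variation. Without that filter, its counts varied between the libraries (exact multinomial test, p = 0.00331, Benjamini-Hochberg adjusted p = 0.0123), and it was the only one of the 8 *Hox* genes with counts that did. The same call was made for 32.8% of all genes without the filter, and for 2.73% of those with 1 to 9 counts, of which 7.17% had an unadjusted p below 0.05. Without replicate 1, *Hoxb1* was at 0. It lies at chr11:96365752-96368256 (ENSMUSG00000018973).

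*Hoxd1*, at the anterior end of its cluster, had 3, 0 and 2 counts, or 0.0891, 0 and 0.0595 FPKM (0.0495 ± 0.0454, SD, n = 3). *Hoxc13*, a posterior gene known for its role in hair and nails, had 1, 0 and 3 counts (0.0300 ± 0.0344 FPKM). *Hoxa7*, from the middle of cluster A, had 0, 1 and 2 counts (0.0190 ± 0.0193 FPKM). For these 3 genes at least 1 library was at 0, and no library exceeded 3 counts. *Hoxb4* had a count of 1 in replicate 1, and *Hoxa2* and *Hoxb7* had a count of 1 in replicate 2. In the order of mean FPKM, *Hoxd13*, *Hoxd1*, *Hoxb1*, *Hoxc13* and *Hoxa7*, the range over libraries of each gene overlapped that of its neighbour, so the order cannot be read as a ranking. The other 31 genes were empty in every library, as the heat map of counts shows for those drawn.

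**Figure D2:**
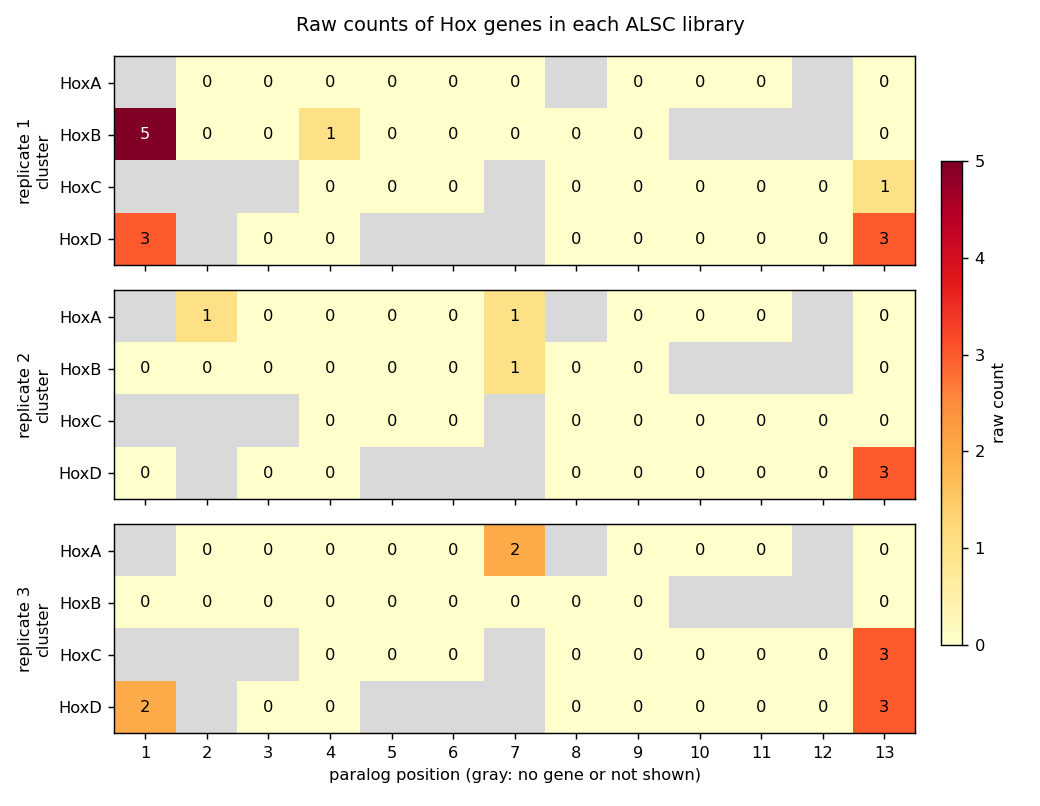
Raw counts of *Hox* genes, with a panel for each ALSC library, a row for each cluster and a column for each paralog position (gray where a cluster has no gene or it is not shown). The highest count was 5 (*Hoxb1*, replicate 1), and 8 genes had a count in some library.

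Summed over the 39 genes, the *Hox* counts were 13, 6 and 10 in replicates 1, 2 and 3, on 5, 4 and 4 genes. Scaled to library size this was 0.719 CPM (95% exact Clopper-Pearson interval 0.383 to 1.23), 0.320 (0.118 to 0.697) and 0.554 (0.266 to 1.02). The 3 sums did not differ detectably at this depth (exact multinomial test against the TMM library sizes, p = 0.209). The summed level was 0.319, 0.148 and 0.233 FPKM (0.233 ± 0.0856, SD, n = 3). Each of 11875, 12894 and 12331 protein-coding genes (54.2%, 58.8% and 56.2%) was alone above the sum of all *Hox* genes in the same library.

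Each of the 4 clusters had at least 1 gene with counts, and no cluster had a detected gene. Cluster D (chr2:74668310-74765142, 9 genes) had 6, 3 and 5 counts, and it took 48.3% of the *Hox* counts (exact Clopper-Pearson interval 29.4 to 67.5%) with 24.2% of the *Hox* gene length. Cluster B (chr11:96194316-96368256, 10 genes) had 6, 1 and 0 counts, 24.1% of the total (10.3 to 43.5%), and 6.25% without replicate 1. Cluster A (chromosome 6, 11 genes) had 0, 2 and 2 counts, and cluster C (chr15:102921103-103036852, 9 genes) had 1, 0 and 3, each 13.8% of the total (3.89 to 31.7%). Cluster A had 25% without replicate 1 and 8.70% without replicate 2, and cluster C had 5.26% without replicate 3. Cluster D had counts in every library, and each of the others was at 0 in at least 1 library. These intervals treat every count as independent, and the *Hoxd13* counts alone were 9 of the 14 of cluster D.

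By position, the 12 anterior genes of paralog groups 1 to 4 had 9, 1 and 2 counts, on 4 of the genes. The 11 genes of groups 5 to 8 had 0, 2 and 2 counts on 2 genes, and the 16 posterior genes of groups 9 to 13 had 4, 3 and 6 counts on 2 genes. Neither end was therefore alone in having counts, and replicate 1 carried most of the anterior ones. The first and the last gene of each cluster, a set chosen after the counts had been seen, had 12, 3 and 8 counts, or 79.3% of all *Hox* counts on 18.1% of the *Hox* gene length. The 31 genes between them had 1, 3 and 2 counts. Of those 8 end genes, *Hoxb1*, *Hoxc13*, *Hoxd1* and *Hoxd13* had counts.

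Other transcription factor families were not empty in the same libraries. Of 44 *Fox* genes 20.5% had 0 counts in every library and 54.5% were detected, and of 19 *Sox* genes 5.26% had 0 counts and 73.7% were detected. Among 40 genes of homeobox families outside the clusters, such as *Dlx*, *Lhx*, *Irx* and *Nkx*, 17.5% had 0 counts and 30% were detected. Of the 190 genes outside the clusters that the authors' annotation assigns to the Homeobox family, a set that overlaps the 40, 39.5% had 0 counts and 27.4% were detected. The highest of them was *Nanog*, a pluripotency factor, at 171 ± 17.96 FPKM, followed by the Hox partner *Pbx2* at 34.0 ± 0.909. These shares are descriptions of gene families and were not tested, since genes are not replicates.

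**Figure D3:**
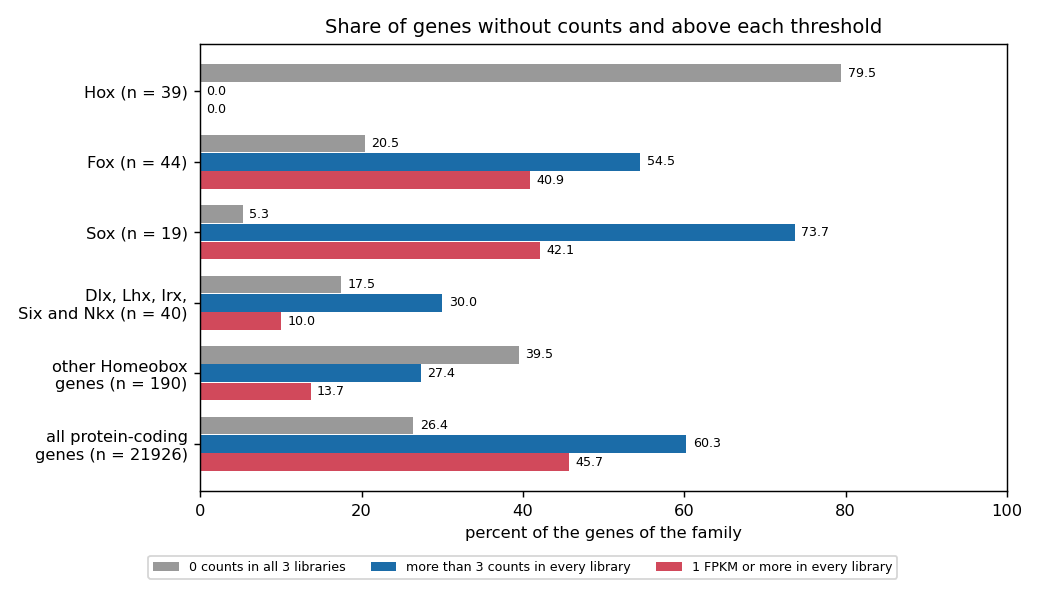
Percent of the genes of each family with 0 counts in all 3 libraries (grey), with more than 3 counts in every library (blue) and with 1 FPKM or more in every library (red). The *Hox* genes have the highest share without counts of the families drawn, 79.5%, and 0% in the other 2 classes.

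Most of the protein-coding genes nearest to the clusters were detected. Of these 40 genes (5 on each side), which lay 8.75 to 1171 kb from their cluster, 35 were detected. In every library, 29 were at 1 FPKM or more, and the median level of the 40 was 6.14 FPKM. Over all protein-coding genes, 60.3% were detected, 45.7% were at 1 FPKM or more in every library, and the median was 0.682 FPKM. Detected genes numbered 9, 9, 8 and 9 of 10 around clusters A, B, C and D. The plot of the neighbourhoods shows these genes in their order along the chromosome.

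Around cluster D, *Mtx2*, which encodes a mitochondrial outer membrane protein, lies 60.7 kb beyond *Hoxd1* and had 26.9, 21.9 and 24.2 FPKM (24.3 ± 2.46, SD, n = 3). This was 266 times the highest *Hox* detection limit of cluster D. At the other end *Evx2*, an even-skipped homeobox gene 8.75 kb from *Hoxd13*, had 0 counts in every library, and *Lnpk*, the next gene at 88.9 kb, had 3.36 ± 0.273 FPKM. *Lnpk* encodes a protein of endoplasmic reticulum junctions.

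Around cluster A, the adaptor gene *Skap2*, on the anterior side, had 3.38, 2.88 and 2.95 FPKM (3.07 ± 0.273), and *Evx1*, 52.6 kb from *Hoxa13*, had 0 counts. Around cluster C, the DNA repair gene *Smug1* had 3.46 ± 0.585 FPKM on the *Hoxc4* side and *Calcoco1*, a coactivator gene, had 7.47 ± 0.533 on the *Hoxc13* side. The nearest neighbours of cluster B were low. *Skap1*, 96.3 kb from *Hoxb1*, had 7, 5 and 7 counts (0.0466 ± 0.00932 FPKM), and the tubulin ligase gene *Ttll6*, 28.9 kb from *Hoxb13*, had 11, 18 and 14 counts (0.203 ± 0.0458 FPKM). *Skap1* was at a level under the median *Hox* limit, and its own limit was lower, at 0.0223 FPKM.

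**Figure D4:**
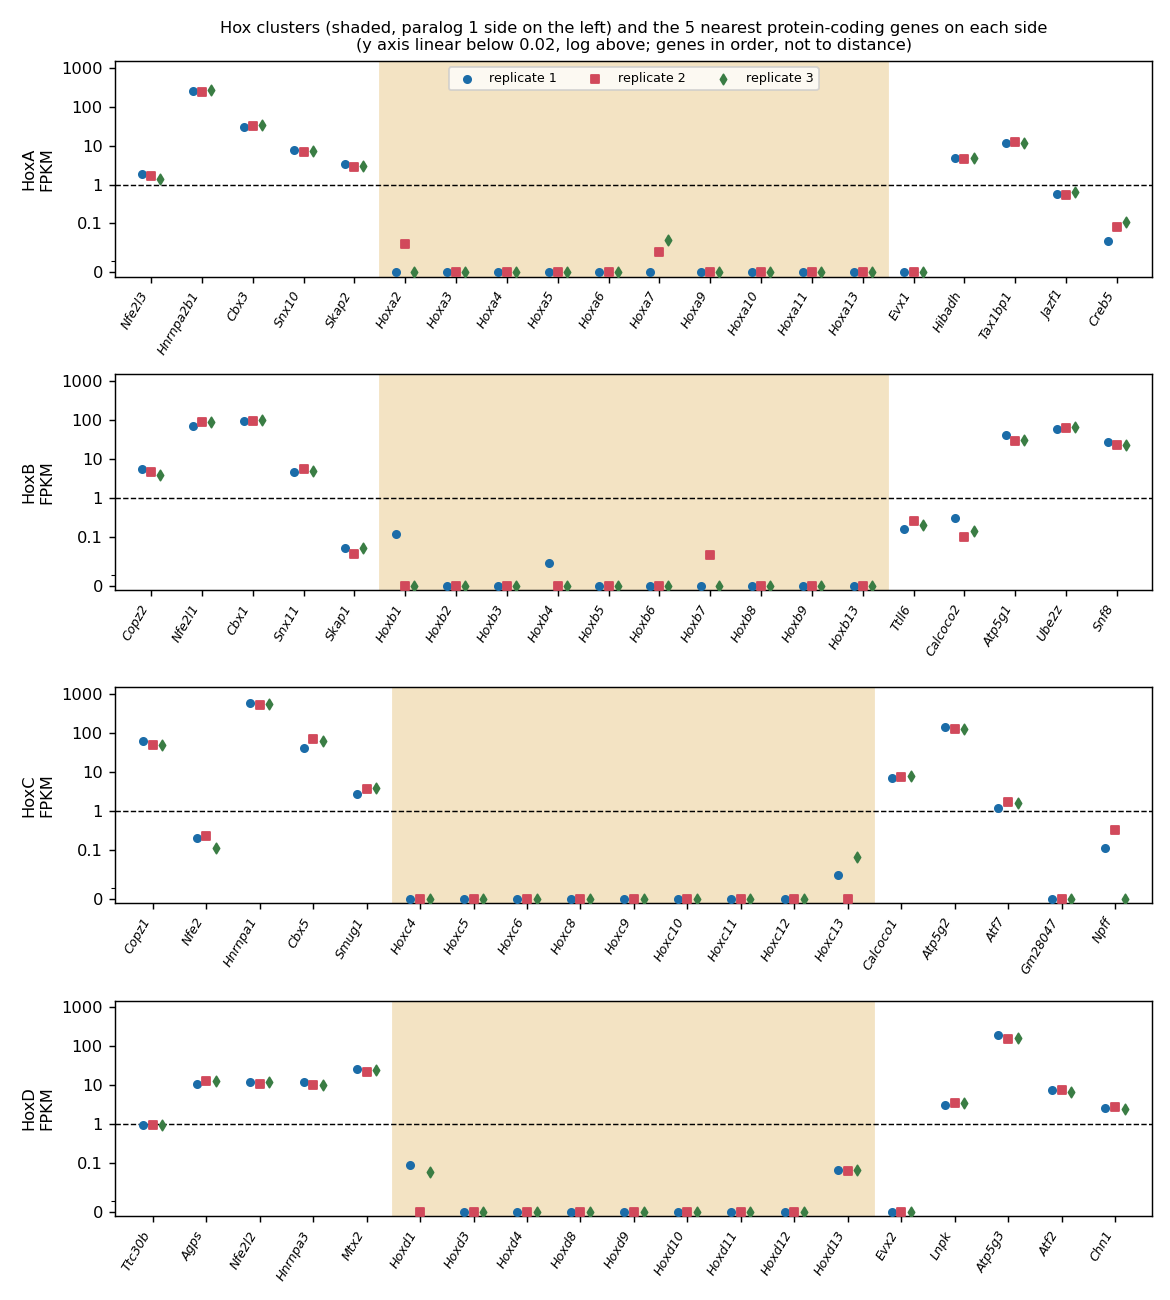
FPKM in replicates 1, 2 and 3 of *Hox* genes (shaded) and of the 5 nearest protein-coding genes on each side, with a panel for each cluster, genes in chromosomal order and not to scale, and a y axis that is linear below 0.02 FPKM and logarithmic above. Of the 40 neighbours 35 were detected, and the *Hox* genes between them were at or near 0.

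The clusters arose by duplication of a larger chromosome segment, and several neighbours are paralogs as well. The *Hox* paralogs were uniformly low whereas the neighbouring paralogs spanned a wide range. The heterochromatin protein genes *Cbx1*, *Cbx3* and *Cbx5* were at 95.4, 32.3 and 57.7 FPKM. The genes *Hnrnpa1*, *Hnrnpa2b1* and *Hnrnpa3* for RNA-binding proteins were at 560, 254 and 10.7 FPKM. Among the stress response factors, *Nfe2l1* was at 82.9 FPKM and *Nfe2l2* at 11.6, whereas *Nfe2l3* was at 1.66 and the blood cell factor *Nfe2* at 0.182.

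Inside the clusters, 44 non-coding genes are annotated, among them 18 lncRNAs and 7 miRNA genes. Of the 44, 6 had counts (16, 11 and 16 in replicates 1, 2 and 3) and 1 was detected. This was *Gm11539*, a processed pseudogene between *Hoxb13* and *Hoxb9* (chr11:96248633-96249189), with 11, 7 and 11 counts (0.953 ± 0.244 FPKM), more in every library than the 10 *Hoxb* genes together. Its assignment is uncertain, since 41.3% of its 50-base words also occur in *Rpl18*, a ribosomal protein gene, and 58.7% are unique. The lncRNAs had 12 counts in all, on 4 genes. *Hotairm1*, in cluster A, had 0, 2 and 1 counts, *Gm53* in cluster B had 2, 0 and 3, *Hoxaas2* had 2, 0 and 0, and *Haglr* in cluster D had 1, 1 and 0. *Hotair*, in cluster C, had 0 counts in every library. Whether reads were counted by strand is not stated, so reads of a *Hox* gene and of an overlapping antisense RNA cannot be told apart.

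The miRNA genes of the clusters, which repress *Hox* and other transcripts, had 0 counts. A polyA library does not measure mature miRNAs, and on rows of 68 to 137 bases the limit was between 1.21 and 2.45 FPKM, so no level follows from these zeros. The mature 5p arms are shown because the same seed (bases 2 to 8, in capitals) recurs in different clusters. They are taken from RefSeq on GRCm38.p6, 5′ to 3′.
mmu-miR-10a-5p, cluster B, chr11:96317186-96317208: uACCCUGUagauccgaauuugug
mmu-miR-10b-5p, cluster D, chr2:74726074-74726096: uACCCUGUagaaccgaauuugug
mmu-miR-196b-5p, cluster A, chr6:52230129-52230150, minus strand: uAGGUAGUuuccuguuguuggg
mmu-miR-196a-5p, clusters B and C, chr11:96265187-96265208 and chr15:102973365-102973386: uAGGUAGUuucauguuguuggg

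The DNA-binding partners of Hox proteins were expressed although the *Hox* genes were not detected. Of 9 genes for TALE homeodomain cofactors, 8 were at 1 FPKM or more and all 9 were detected. The shares over all protein-coding genes were 45.7% and 60.3%. *Pbx2* was the highest, at 33.1, 34.9 and 34.1 FPKM, and *Meis2* the lowest, at 0.142, 0.186 and 0.134. *Meis1* and *Pknox1* varied between the libraries and were lowest in replicate 1 (adjusted p = 3.27e-04 and 0.00327, exact multinomial or chi-square test as above). The 3 libraries of *Meis1*, for example, had 3.14, 4.12 and 3.96 FPKM. In all 3 of 9 cofactors varied, against 47.4% of all genes.

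The ParaHox genes, the sister group of the *Hox* cluster, were not detected either. All 6 had at most 3 counts in every library. *Cdx1*, *Pdx1* and *Gsx2* had 0 counts, *Cdx2* and *Cdx4*, activators of posterior *Hox* genes, had a count of 1 in replicates 2 and 3 respectively, and *Gsx1* had 2 counts in replicate 1. The even-skipped genes *Evx1* and *Evx2* at the cluster ends had 0 counts, as given above.

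Genes for Polycomb proteins were expressed. Of 11 genes of PRC2, the complex that methylates histone H3 at lysine 27, 10 were at 1 FPKM or more in every library. *Rbbp7*, a histone-binding subunit, was the highest at 105 ± 6.57 FPKM and *Phf1*, the exception, the lowest, at 1.28, 0.873 and 1.00 FPKM. The core subunits *Suz12*, *Ezh2* and *Eed* were at 54.2 ± 4.003, 32.1 ± 1.05 and 29.1 ± 2.70 FPKM. Of 16 genes of PRC1, which ubiquitinates histone H2A, 12 were at 1 FPKM or more, the highest being *Phc1* at 69.7 ± 7.73 FPKM. The share at 1 FPKM or more over all protein-coding genes was 45.7%. Of the 11 PRC2 genes 8 varied between the libraries and of the 16 PRC1 genes 9 did, against 47.4% of all genes tested.

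The opposing Trithorax group, which keeps *Hox* genes active, was expressed as well. Of 10 genes 9 were at 1 FPKM or more in every library, from *Kmt2d* at 2.47 ± 0.753 to *Dpy30* at 90.9 ± 17.6 FPKM. The exception was *Kmt2c*, with 0.858, 1.88 and 1.45 FPKM. Among all protein-coding genes, 45.7% were at 1 FPKM or more in every library. Of the 10 genes 8 varied between the libraries, against 47.4% of all genes tested. *Kmt2a* (MLL1), a histone H3 lysine 4 methyltransferase, had 1.71, 4.59 and 4.17 FPKM, lowest in replicate 1. All 6 genes of the CTCF and cohesin list, whose proteins divide the clusters into domains, exceeded 1 FPKM. They ranged from *Stag1* at 8.34 ± 1.17 to *Rad21* at 67.5 ± 5.41 FPKM, and all 6 varied between the libraries. Of 4 other regulators, *Gmnn* (geminin) was at 98.9 ± 14.6 FPKM and *Egr2*, an activator of hindbrain *Hox* genes, had 0 counts.

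Of the signals that start *Hox* expression, receptors of the retinoic acid pathway were detected, and its synthetic enzymes were near or under the limit. Of 14 genes 8 were at 1 FPKM or more in every library, among them the receptors *Rarg* (14.3 ± 0.710 FPKM) and *Rara* (9.18 ± 0.634). The same held for 45.7% of all protein-coding genes. The highest of the 14 was *Crabp1*, a retinoic acid binding protein, at 26.2 ± 5.84 FPKM. The synthetic enzymes *Aldh1a1* and *Aldh1a3* had at most 3 counts in every library, as did *Cyp26c1* and the receptor *Rarb*, itself a retinoic acid target. *Aldh1a2*, the main enzyme of the early embryo, had 9, 0 and 2 counts, highest in replicate 1 (adjusted p = 0.00190, exact multinomial test). *Cyp26a1*, which degrades retinoic acid, was at 2.07 ± 0.213 FPKM.

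Of 10 genes for posterior signals and their targets, 4 were at 1 FPKM or more and 9 were detected. The shares over all protein-coding genes were 45.7% and 60.3%. *Fgf8* was the highest at 53.4, 46.9 and 46.3 FPKM, and *Wnt3*, the WNT ligand that starts the primitive streak, had 1.98, 2.50 and 2.51 FPKM. *T*, the streak factor brachyury, was lower, at 0.754 ± 0.166 FPKM. *Wnt3a*, which maintains posterior progenitors, had 1, 2 and 0 counts. The plot of the gene lists sets these groups beside the *Hox* genes.

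**Figure D5:**
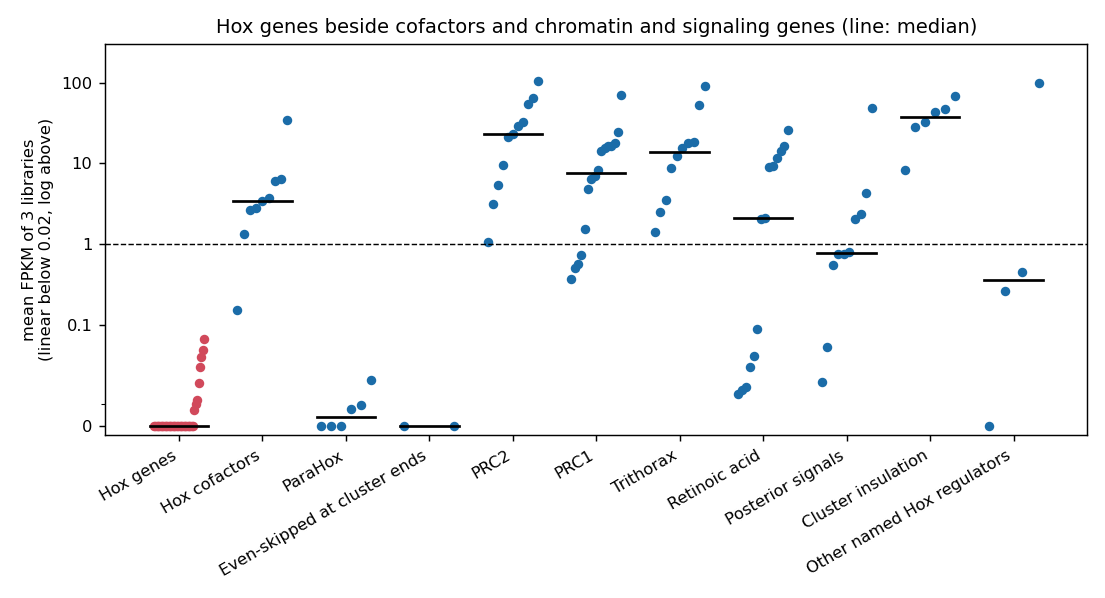
Mean FPKM over the 3 libraries of each gene (points) in the lists of cofactors, related homeobox genes, chromatin regulators and signals beside the *Hox* genes, with the median of each list as a line and a y axis that is linear below 0.02 FPKM and logarithmic above. The lists of cofactors, PRC2, PRC1, Trithorax and insulation lie mostly above 1 FPKM, and the ParaHox and even-skipped genes lie with the *Hox* genes under 0.1 FPKM.

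Markers of posterior and mesodermal cells, in which *Hox* genes are usually found, were mostly under 1 FPKM, but many were detected. Detected were 3 of 5 markers of posterior progenitors, 5 of 6 of streak and mesoderm and 2 of 4 of extraembryonic mesoderm. Over all protein-coding genes, 60.3% were detected and 45.7% were at 1 FPKM or more in every library. The 5 markers of posterior progenitors summed to 2.16 to 2.49 FPKM in the 3 libraries, with none at 1 FPKM in every library and *Cdx2* and *Wnt3a* at or under 3 counts. The 6 markers of primitive streak and mesoderm summed to 3.91 to 4.85 FPKM, with 1 at 1 FPKM (*Eomes*, 1.32 ± 0.161) and *Mesp1* at or under 3 counts. The 4 markers of extraembryonic mesoderm summed to 3.95 to 4.52 FPKM, nearly all of it *Bmp4*, while *Hand1* and *Foxf1* were at or under 3 counts. Replicate 1, which had the *Hoxb1* counts, had the lowest sum for posterior progenitors and for streak and the highest for extraembryonic mesoderm. None of the markers tested in these lists varied between the libraries, against 47.4% of all genes tested. Their totals over the 3 libraries were 20 (*Tbx20*) to 509 counts (*Bmp4*), so small differences could be missed. The sums themselves were not tested. The part of these cells in the *Hox* counts of replicate 1 was not tested either.

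The 6 fibroblast markers summed to 6.71 to 7.38 FPKM, mainly from *Thy1* (6.88 ± 0.400). *Col1a2* was also detected, with 32, 64 and 65 counts (0.236 ± 0.0813 FPKM). It varied between the libraries (adjusted p = 0.0107, exact multinomial test), as did 47.4% of all genes tested. *Col3a1*, *Postn*, *Dcn* and *Lum* had at most 3 counts in every library. Neural cells of the hindbrain and spinal cord also use *Hox* genes. Of 5 neural markers, *Tubb3* (28.0 ± 1.31 FPKM) and *Sox1* (8.18 ± 0.393) were at 1 FPKM or more in every library, against 45.7% of protein-coding genes. *Map2* was detected, at 0.984 ± 0.242 FPKM. *Pax6* had 9, 3 and 10 counts and was not detected, and *Neurog2* was at or under 3 counts. The 5 markers summed to 36.4 to 38.2 FPKM. The 4 markers of definitive endoderm summed to 7.66 to 9.03 FPKM, the highest being *Cer1* (5.14 ± 0.771). The 4 of visceral endoderm summed to 4.39 to 5.80 FPKM, the highest being *Rbp4* (5.06 ± 0.696), while *Ttr*, *Afp* and *Apoa1* were at or under 3 counts.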

How the data were processed

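PolyA RNA libraries were made with the Illumina TruSeq kit and sequenced from both ends. The authors mapped the reads to GRCm38, with HISAT2 2.0.5 listed in the submitters' processing notes. The counting program and its handling of strand and of reads with several positions are not given in the sources used here. The authors deposited raw counts per gene, without normalization. The table's 3 other count columns match no sample of this series and were not used here. Its 317 rows without a gene name held 0.165%, 0.182% and 0.182% of the counts and were left out.

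FPKM was computed from count, the table's gene length and the total on named genes. Variation between libraries was tested on counts against edgeR's TMM library sizes, with the exact multinomial distribution for totals up to 300 counts and the chi-square distribution above, over genes with at least 10 counts, with Benjamini-Hochberg adjustment. The test was tested on simulated data. Exon overlap, GC content and 50-base words came from GENCODE M21, in which all 39 *Hox* coordinates matched the table. Sequences came from RefSeq tables.

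The genes and lists were chosen with earlier results of these data known. Per-library values were given for each *Hox* gene with counts above the limit or with an adjusted p below 0.05, and further for the nearest neighbours, for detected non-coding genes in the clusters, and for the highest, lowest and empty genes of each list. The remaining *Hox* genes with counts, and other genes named for their role, were added after their values had been seen. Some genes counted in the totals are not reported here by name or drawn. Alternatives covered detection limits, library sizes, TPM, filters, window and leaving out each replicate. The tools were R 4.3.3 (edgeR 4.0.16, DESeq2 1.42.0) and Python 3.11.15 (matplotlib 3.10.9, pandas 2.3.3, SciPy 1.17.1, NumPy 2.4.6).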

Additional observations from a re-analysis of the deposited data

How the results depend on the processing

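The number of *Hox* genes detected, 0 with more than 3 counts in every library, was 1 with any count in every library (*Hoxd13*, and so also 1 for paralog groups 9 to 13) and 4 with more than 3 counts in the sum of the libraries. It was 0 with at least 10 counts and when any replicate was left out. No *Hox* gene reached 1 FPKM with TMM or DESeq2 library sizes, without mitochondrial genes, in TPM or, in an alternative chosen after seeing the data, over exonic bases free of other genes, and none reached 0.5 FPKM. The summed level of 0.233 FPKM was 0.635 in TPM, which by construction fixes the sum over all genes, and 0.190 to 0.276 FPKM when a replicate was left out. The share of cluster B, 24.1%, ranged from 6.25% (without replicate 1) to 36.8%. The number of *Hox* genes varying between libraries was 0, and 1 (*Hoxb1*) without the filter on low counts, since the 39 genes all had fewer than 10 counts. Detected neighbours were 35 of 40, 21 of 24 with 3 genes per side, and 35 to 36 when a replicate was left out. For the main counts and shares, 63 alternative values changed no call and 7 moved, those given here. For the mean levels of single *Hox* genes, 50 stayed within the spread between replicates and 6 moved, all in TPM. No paired analysis was possible because there is 1 condition. The comparison of CpG observed/expected over all *Hox* promoters was not run, as it was void with 22 of 39 promoters. At this depth, levels under 0.0266 to 0.190 FPKM could not be told from 0 in a single library.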
